A study of Mus musculus with 2 samples.

Results

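The Celf family of the mouse comprises 6 genes, Celf1 to Celf6, and 206 of the 99782 annotated anti-FLAG peaks of 1 CUT&Tag library of the hippocampus (0.2065%) were assigned to them. The genes were chosen by measured values of this library, since the number of peaks assigned to them was known when the family was picked, and the peaks are those whose gene symbol in the authors' annotation table is 1 of the 6. Counts of peaks are therefore given as descriptions, without a test. The peaks were very unevenly shared: Celf2 received 94, Celf4 91, Celf5 8, Celf1 5, Celf3 4 and Celf6 4.

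CELF proteins (CUGBP and ELAV-like factors) carry RNA recognition motifs and bind RNA rich in U and G. They regulate alternative splicing in the nucleus and the stability and translation of mRNA in the cytoplasm. Celf1 and Celf2 are expressed in many tissues, Celf1 is known for its part in myotonic dystrophy, and Celf3, Celf4 and Celf5 are best known from the nervous system, where mice lacking Celf4 have seizures. Celf6, the least studied member, also acts in brain.

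CUT&Tag tethers a transposase to an antibody on chromatin, and the fragments it cuts out are sequenced. Hippocampal tissue of CamK-PARIS mice on the C57BL/6J strain gave 2 libraries, 1 with an anti-FLAG antibody and 1 with an IgG antibody as negative control, neither with a treatment. The antibody was used to capture chromatin bound by PARIS (Zfp746), a zinc finger protein known as a transcriptional repressor. The labels give neither the promoter that drives the transgene, nor the number, age and sex of the animals, no library from mice without the transgene was analysed here, and the hippocampal origin cannot be checked against markers because a peak list measures no expression. No replicate error exists for any value, the sequencing depth is unknown, and the intervals below (Wilson for shares, exact Poisson for densities, both at 95%) cover counting error over peaks only.

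On the mm10 build, with GENCODE M21 gene models, Celf1 (ENSMUSG00000005506) spans 79.12 kb of chromosome 2, from 90940382 to 91019497 on the plus strand. Celf2 (ENSMUSG00000002107), the longest member with 969.9 kb, lies on the minus strand of the same chromosome from 6539694 to 7509563. Celf3 (ENSMUSG00000028137) is the shortest, with 13.9 kb on the plus strand of chromosome 3 from 94478295 to 94492198. Celf4 (ENSMUSG00000024268) covers 276.5 kb on the minus strand of chromosome 18, from 25477632 to 25754157. Celf5 (ENSMUSG00000034818) covers 23.48 kb on the minus strand of chromosome 10, from 81459227 to 81482709, and Celf6 (ENSMUSG00000032297) 29.38 kb on the plus strand of chromosome 9, from 59577917 to 59607292.

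Each peak has a maximum signal, the highest coverage inside it, in the authors' whole-number units, for which any scaling is not given. Maximum signals ran from 45 to 144 (median 123) over the 5 peaks of Celf1 and from 9 to 459 (median 88) over the 94 of Celf2. They ran from 115 to 248 (median 195.5) over the 4 peaks of Celf3 and from 9 to 492 (median 103) over the 91 of Celf4. They ran from 16 to 490 (median 173) over the 8 peaks of Celf5 and from 108 to 407 (median 201.5) over the 4 of Celf6. The ranges of all 6 genes overlapped, and Celf1 alone had no peak above 144. The median over all 206 peaks, 103, stood beside 101 over all annotated peaks, and the median width of 397 bp beside 363 bp.

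**Figure D1:**
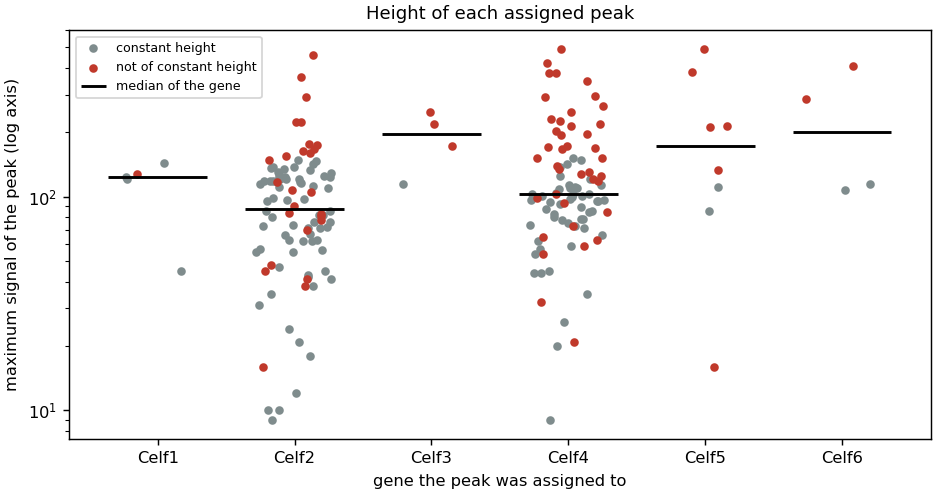
Maximum signal of each assigned peak (log axis, authors' coverage units) for the 6 Celf genes, with a bar at the median of each gene and colour for the shape of the peak. Celf2 and Celf4 hold most points and span from 9 to 459 and 492, while the medians of Celf3 (195.5) and Celf6 (201.5) rest on 4 peaks each.

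The 3 highest peaks of each gene, and the peaks at its start sites, carry the description below, and sequence around the maximum of a choice of them, at least 1 for each of 5 genes, is shown first. No sequence is printed for Celf4, which holds the tallest peak of the family. The strand is that of the gene, each sequence comes from the GRCm38.p6 genome of RefSeq, and capitals mark the region of maximum signal within the sequence shown. The sequences of Celf5, Celf6, Celf3 and Celf1 shown here come from peaks at start sites. Of those of Celf2, the first lies at a start site in a CpG-rich stretch, with 28 CpG in 150 bp and a GC content of 83.33%. The second lies at another start site, the third in intron 5 in a purine repeat, and the fourth beyond the 3′ end of the gene.
Celf5, 5′ end, maximum 490, chr10:81482151-81482300: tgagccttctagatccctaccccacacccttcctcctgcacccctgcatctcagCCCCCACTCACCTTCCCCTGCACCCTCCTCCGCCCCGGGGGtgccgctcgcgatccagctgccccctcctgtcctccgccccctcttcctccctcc
Celf5, internal start, maximum 384, chr10:81473136-81473260: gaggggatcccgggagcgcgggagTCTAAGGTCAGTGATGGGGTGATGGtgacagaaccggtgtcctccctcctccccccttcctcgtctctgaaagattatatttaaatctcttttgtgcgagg
Celf6, 5′ end, maximum 288, chr9:59578326-59578355: GAAGGGACGGCGGGACAGGCGGGACGCTCG
Celf6, internal start, maximum 407, chr9:59589792-59589941: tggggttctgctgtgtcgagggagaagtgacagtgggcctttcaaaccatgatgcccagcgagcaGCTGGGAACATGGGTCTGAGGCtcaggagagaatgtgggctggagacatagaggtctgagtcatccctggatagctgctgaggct
Celf3, internal start, maximum 248, chr3:94484110-94484259: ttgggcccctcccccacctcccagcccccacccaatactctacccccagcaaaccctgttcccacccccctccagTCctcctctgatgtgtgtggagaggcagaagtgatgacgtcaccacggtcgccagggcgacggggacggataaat
Celf1, internal start, maximum 128, chr2:90964953-90965102: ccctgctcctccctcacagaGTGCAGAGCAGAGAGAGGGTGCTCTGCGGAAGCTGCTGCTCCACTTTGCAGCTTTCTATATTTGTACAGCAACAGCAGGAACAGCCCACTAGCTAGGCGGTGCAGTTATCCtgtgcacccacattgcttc
Celf2, internal start, maximum 177, chr2:6872006-6872155: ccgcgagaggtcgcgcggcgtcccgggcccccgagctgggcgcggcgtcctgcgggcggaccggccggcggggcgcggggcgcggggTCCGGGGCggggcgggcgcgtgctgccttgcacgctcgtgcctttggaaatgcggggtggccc
Celf2, internal start, maximum 168, chr2:6884518-6884547: GTTCCGAATCTGGCTGTTGGTTCGTCTTTT
Celf2, intron 5, maximum 363, chr2:6637726-6637875: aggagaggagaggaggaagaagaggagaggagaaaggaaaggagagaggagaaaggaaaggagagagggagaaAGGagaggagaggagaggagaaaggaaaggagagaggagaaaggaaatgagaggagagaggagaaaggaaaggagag
Celf2, downstream of the gene, maximum 459, chr2:6523887-6524036: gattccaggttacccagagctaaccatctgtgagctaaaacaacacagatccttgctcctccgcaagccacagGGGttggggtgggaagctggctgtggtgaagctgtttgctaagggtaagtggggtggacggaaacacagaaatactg

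Celf5 had 5 of its 8 peaks near a start site, Celf1 2 of 5, Celf3 2 of 4, Celf6 2 of 4, and Celf2 and Celf4 4 each. By the authors' distance from the region of maximum signal to the assigned transcription start site (TSS), 11 of the 21 peaks of the 4 shorter genes lay within 1 kb of it (52.38%, interval 32.37% to 71.66%). For Celf2 and Celf4 this held for 8 of 185 peaks (4.324%, interval 2.207% to 8.3%), and for the family for 19 of 206 (9.223%, interval 5.984% to 13.96%). Among all annotated peaks the share was 15.3%. The length of the genes differs in the same way: sequence within 1 kb of an annotated start made up 21.59% of the 4 shorter gene bodies and 2.045% of those of Celf2 and Celf4. It ranged from 11.74% in Celf1 to 60.92% in Celf3, and its part in the shares of peaks was not tested.

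At Celf5, 2 peaks lay within 1 kb of the first start sites, the taller of them with a maximum of 490 at position 81482118 to 81482638, in place 334 of all annotated peaks by maximum signal. Its neighbour, 81481328 to 81482021, reached 214. The other prominent peak of Celf5, with a maximum of 384 (81472337 to 81473393, 1057 bp wide), covered a cluster of internal start sites 9.519 kb into the gene, and a peak of 213 lay 508 bp from a further start. The 4 remaining Celf5 peaks reached 133, 111, 86 and 16. Measured from the whole peak, those of 133 and 111 also lay within 1 kb of an annotated start, and those of 86 and 16 did not. At Celf6 the 5′ end lay under a peak 1652 bp wide with a maximum of 288 (59577290 to 59578941), and an internal start 11.4 kb downstream lay under a peak of 407 (59588670 to 59590060). Its other peaks, 108 and 115, were of constant height and lay 2.179 and 4.73 kb from the 5′ end.

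Celf3 and Celf1 had their start-site peaks inside the gene. The tallest Celf3 peak (248, 94483879 to 94484915) covered the first starts of a group of 4 transcripts 6.507 kb into the gene, and a peak of 115 lay 90 bp from another internal start. A peak of 225 inside Celf3 (94479995 to 94480768), 878 bp from its first group of start sites, was assigned by the authors to Riiad1, a gene on the opposite strand that overlaps the 5′ part of Celf3. This peak lies on a start site of Riiad1 itself, at a distance of 0 bp. The other 2 peaks assigned to Celf3, of 219 and 172, lay 3.795 and 5.887 kb beyond its 3′ end in GENCODE, the latter in Snx27. By RefSeq transcripts, the summit of the former lay in untranslated exon bases of Celf3. In Celf1, a peak of 128 (90964803 to 90965525) covered the start of 1 noncoding transcript 24.71 kb into the gene, and a peak of 45 lay 100 bp from a start at 47.3 kb. Its other peaks reached 123 in intron 1, and 144 and 121 in the last exon, the 3′ UTR.

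Grouping annotated start sites of each gene that lay within 1 kb of one another gave 30 groups, of which 19 had a peak within 1 kb, measured from the whole peak, whatever gene it was assigned to. Celf4 had a peak at 5 of 5 groups, Celf3 at 3 of 4, Celf5 at 3 of 4, Celf2 at 4 of 8, Celf6 at 2 of 4 and Celf1 at 2 of 5. For the first group of Celf3 it was the peak on the Riiad1 start site. Of the 16 groups with a protein-coding transcript, 11 had a peak, and of the 14 without one, 8. Counted by gene, 6 of 6 Celf genes had a peak within 1 kb of some start site and 3 of 6, namely Celf4, Celf5 and Celf6, within 1 kb of the outermost 5′ end. Over all 21938 protein-coding genes these shares were 47.6% and 39.3%, and nothing is read from the comparison, since the family was selected on its peaks.

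Start sites without a peak included the main 5′ start of Celf1 and upstream starts of Celf2. The first group of Celf1, which holds 5 coding transcripts and lies in a window of 501 bp with 75.25% GC and a ratio of observed to expected CpG of 0.8383, was 17057 bp from the nearest peak. The 2 most 5′ coding groups of Celf2, at 7395893 to 7396198 and at 7081207 to 7081313, were 7927 and 3075 bp from the nearest. The nearest sequence upstream of the first coding group of each gene that is free of untranslated exon bases, 138 and 143 bp before a start, is shown for comparison with those under peaks, with CpG dinucleotides in capitals. That of Celf1 holds 5 CpG at 56.0% GC and that of Celf2 a single one at 35.33% GC.
Celf1, upstream of the 5′ start, chr2:90940109-90940258: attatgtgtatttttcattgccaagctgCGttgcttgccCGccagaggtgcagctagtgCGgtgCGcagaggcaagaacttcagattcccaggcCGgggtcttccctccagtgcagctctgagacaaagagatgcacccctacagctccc
Celf2, upstream of the most 5′ coding start, chr2:7396342-7396491: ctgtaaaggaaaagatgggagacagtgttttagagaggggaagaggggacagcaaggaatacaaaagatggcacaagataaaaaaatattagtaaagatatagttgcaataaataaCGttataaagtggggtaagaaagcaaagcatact

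Base composition overlapped between start groups with and without a peak. In windows of 501 bp, the 14 groups with a peak not of constant height had a median GC content of 56.89% (41.72% to 79.24%) and a median observed-to-expected CpG of 0.4312. The 11 groups without a peak had medians of 53.69% (33.53% to 75.25%) and 0.3005, and the 5 with only a constant-height peak 50.3% and 0.1975. Of the 20 promoters that the RefSeq table (250 bp before to 50 bp after a start) gives for 5 of the members, 9 overlapped a peak, and these 9 share 6 peaks. Of all 32817 promoters of the table, 22.9% overlapped a peak. Celf4 was not matched in that table.

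The 2 long genes showed another arrangement. Celf2 had 68 of its 94 peaks inside the gene body, 21 upstream and 5 downstream, and Celf4 61 of 91 inside, 25 upstream and 5 downstream. All peaks of Celf1, Celf5 and Celf6 and 2 of 4 of Celf3 lay inside the GENCODE bodies. In total, 148 of the 206 peaks of the family (71.84%, interval 65.35% to 77.54%) were in the body of the gene they were assigned to. By the authors' classes, 125 peaks (60.68%, interval 53.87% to 67.1%) were intronic, 44 (21.36%, interval 16.31% to 27.45%) distal intergenic and 27 (13.11%, interval 9.166% to 18.4%) within 3 kb of a TSS, and 5 each were in exons and 3′ UTRs. Over all annotated peaks these shares were 37.99%, 31.91% and 24.6% for the first 3 classes. Exons and 3′ UTRs held 3.522% and 1.746% of all annotated peaks, beside 2.427% each in the family. For the share in the gene body no value over all peaks is given here. Celf2 contributed 60 and Celf4 62 of the intronic peaks. The classes count parts of any annotated transcript, so some of these peaks lie in introns, exons or 3′ UTRs of other genes. Among these genes are AW554918 and Snx27, and the noncoding Gm13211, AC118208.1 and AC161438.1. Of the peaks classed as exonic, only that in exon 5 of Celf4 was annotated to an exon of a Celf gene.

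**Figure D2:**
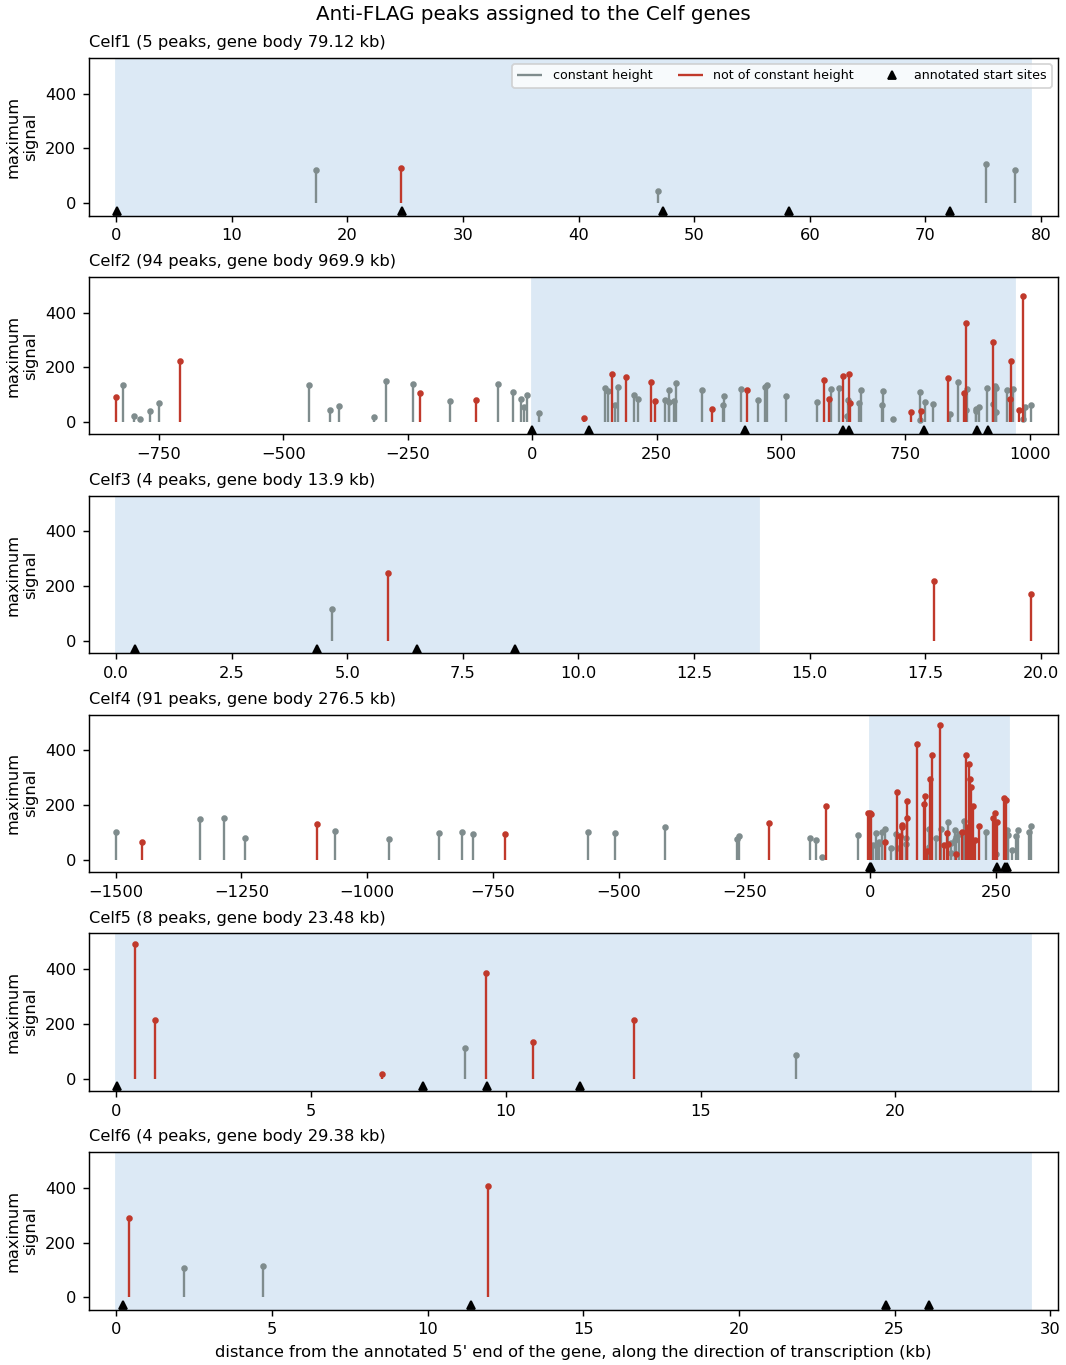
Position of every assigned peak along each Celf gene in kb from the annotated 5′ end in the direction of transcription (gene body shaded, triangles at start sites), with the maximum signal in the authors' coverage units as height. The tallest peaks of Celf5 and Celf6 stand near triangles, and the peaks of Celf4 crowd the shaded body. Celf2 and Celf4 have tails of assigned peaks reaching 835.3 and 1499 kb upstream.

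Peak density in the gene body ranged widely within the family, and is described without a test because the family was picked on its peaks. Counting every peak whose maximum lay in the body, whatever its assignment, Celf4 had 22.06 peaks per 100 kb and Celf2 7.011. Relative to the mean of the chromosome, the ratio was 6.0 for Celf4 (61 peaks, interval 4.59 to 7.708), 9.908 for Celf5 (9 peaks, 4.531 to 18.81) and 1.644 for Celf2 (68 peaks, 1.277 to 2.085). The ratio was 6.956 for Celf3 (3 peaks, 1.435 to 20.33), 2.85 for Celf6 (4 peaks, 0.7766 to 7.298) and 1.482 for Celf1 (5 peaks, 0.4813 to 3.459). The ratios of Celf3, Celf6 and Celf1 rest on 3 to 5 peaks each, and 1 of the 3 in Celf3 is the peak on the Riiad1 start site. The ratio of Celf1 was 0.8314 without constant-height peaks and 0.8207 with peaks of at least 200 bp only. The intervals treat neighbouring peaks as independent. With peaks within 1 kb merged, the ratio was 4.763 for Celf4 (43 peaks, interval 3.447 to 6.416), 7.582 for Celf5 and 1.664 for Celf2. It was then 5.157 for Celf3, 3.28 for Celf6 and 1.7 for Celf1.

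In the order of this density ratio over the 2492 protein-coding genes of at least 100 kb, Celf4 took place 12 and Celf2 place 728. The ratio was above 1 for 53.7% of these genes, with a median of 1.073. The top 5 were Bcor (16.08, 24 peaks), Gm45837 (7.956), Mgll (7.026), Dnmt3a (6.843) and Nfix (6.577), and Usp9y (5.892, with 1 peak) stood just below Celf4. Directly next to Celf2 stood Dtnb (1.645) and Prkch (1.644). Pooled over the 6 genes, 150 peaks stood against 57.63 expected from the chromosome means, a ratio of 2.603 (2.203 to 3.054). Without Celf4 that ratio was 1.875 and without Celf2 5.036.

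**Figure D3:**
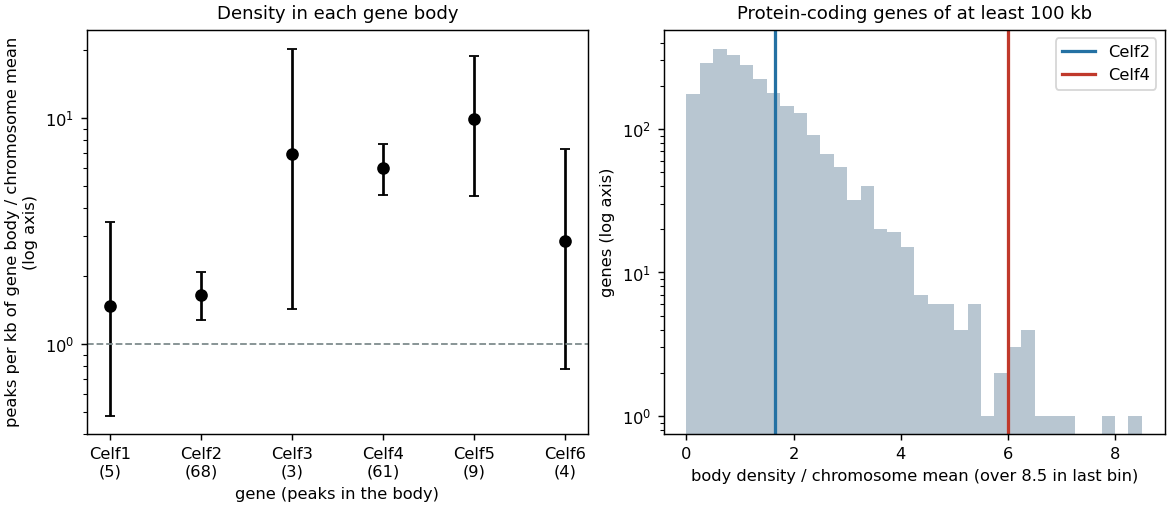
Left, peak density in the body of each Celf gene over the chromosome mean (log axis, points with exact Poisson 95% intervals, number of peaks in brackets, dashed line at 1). Right, the same ratio for the 2492 protein-coding genes of at least 100 kb (log count axis), with Celf4 (6.0) and Celf2 (1.644) as lines.

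Peaks were also compared by shape. A SEACR peak whose total signal equals its maximum times its width is a plateau over its whole length, and "constant height" here means that this ratio reached 0.99. In the family, 78 of 206 peaks were not of constant height (37.86%, interval 31.52% to 44.65%), against 36.7% of all annotated peaks. Inside the body of Celf4 the share was 54.1% (33 of 61, interval 41.72% to 65.99%), and outside it 23.33% (7 of 30, interval 11.79% to 40.93%). In Celf2 the shares were 29.41% inside (20 of 68, interval 19.92% to 41.11%) and 23.08% outside (6 of 26, interval 11.03% to 42.05%). The peaks not of constant height were taller and wider, with a median maximum of 157.5 and a median width of 605 bp, against 90.5 and 269.5 bp for the 128 constant ones. With only these peaks counted, the density ratio of Celf4 was 9.368 (place 8) and that of Celf2 1.356 (place 911).

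Tall peaks, those among the highest 10% of all annotated peaks (a maximum of at least 189), numbered 29 in the family (14.08%, interval 9.984% to 19.49%), against 10.1% of all annotated peaks. Celf4 held 16 of them, Celf2 5, Celf5 4, Celf3 2, Celf6 2 and Celf1 none. Of the 16 of Celf4, 15 lay inside the gene and 11 of these in intron 2. The tallest, with a maximum of 492 (25616061 to 25616601, place 329 of all annotated peaks), stood 137.9 kb from the 5′ end, in intron 2. The next were a peak of 423, the widest of the family with 2632 bp (25660473 to 25663104), and a pair of 381 (25563341 to 25564146 and 25630016 to 25631285), also in intron 2. A run of 15.27 kb in this intron, from 25548873 to 25564146, held 5 tall peaks between 197 and 381 among 7 peaks. Those at 25553482 to 25554478 and 25554533 to 25555615 nearly adjoin. The start sites of Celf4 had lower peaks, with 169 and 168 at the 5′ end, 139 and 227 at internal starts 252.9 and 267.3 kb into the gene, and a constant-height peak of 109 at the last.

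The body peaks of Celf4 were spread over its length. With the gene cut into 10 equal parts, each part held 3 to 8 of the 61 peaks, 29 in the 5 parts nearest the 5′ end and 32 in the other 5. Relative to the longest coding transcript, 61 of 61 lay in introns when each was placed by the midpoint of its maximum, and introns make up 98.55% of its length. Peaks can still cover exons, as that of 227 at 25486786 to 25487417 covers exon 12, and the authors' table classes a peak of 20 (25504567 to 25504851) as lying in exon 5 of this transcript. Intron 1 (73.85 kb) held 19 and intron 2 (141.7 kb) 33, so that their densities were close, at 25.73 and 23.3 peaks per 100 kb. Intron 3 (32.66 kb) held 3, at 9.185 per 100 kb. The median gap between neighbouring peaks was 3.034 kb and the longest 18.16 kb. The densest 20 kb, with 9 peaks, lay in intron 2 and contains most of the antisense gene Gm3227.

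In Celf2 the peaks leaned towards the 3′ end, with 42 in the 5 parts nearest to it against 26 in the other 5. The 10 parts held between 1 and 14, the fewest in the first and the most in the last. The first part lies largely within a stretch of 90.91 kb without a peak (7404670 to 7495578), the longest gap, against a median gap of 7.885 kb. This stretch lies upstream of every coding start, the first of which is 113.5 kb into the body. The outermost 5′ end is that of 1 noncoding transcript. Introns 1, 2 and 3, of 210.3, 223.1 and 240.8 kb, held 15, 10 and 19 peaks, or 7.131, 4.483 and 7.892 per 100 kb. The 12 shorter introns held 0 to 5 peaks each. Intron 4 held 4 (6.991 per 100 kb), introns 5 and 11 held 5 each (12.69 and 19.85 per 100 kb), intron 10 held 1 (7.181 per 100 kb), and introns 8, 9, 13 and 15 held 0. By the same midpoint, 65 of 66 peaks within the longest coding transcript were intronic, 98.48% of peaks on 99.1% of the length.

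**Figure D4:**
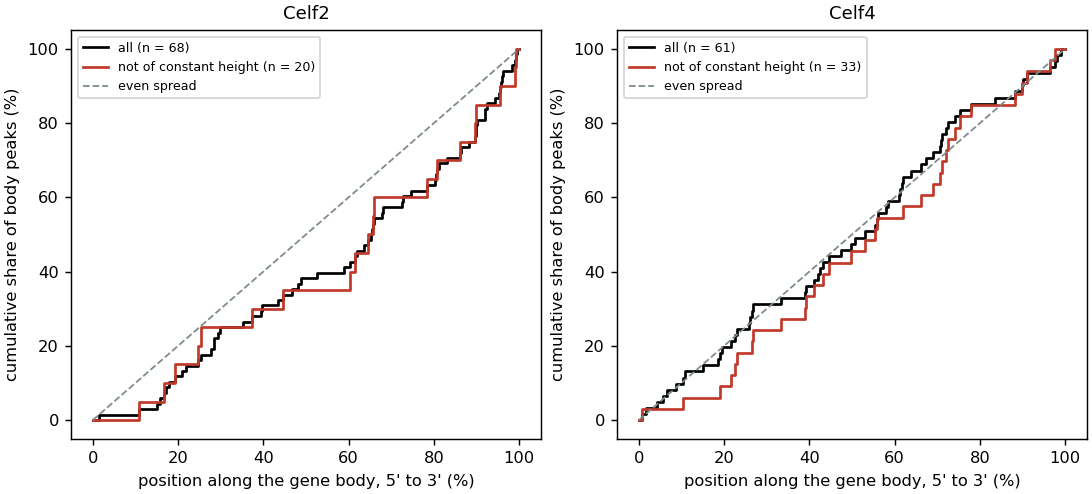
Cumulative share of the peaks in the body of Celf2 (68 peaks) and Celf4 (61 peaks) against position along the gene in percent of its length, with peaks not of constant height in red and an even spread as the dashed line. The Celf2 line runs below the dashed line (26 of 68 peaks lie before the midpoint), while that of Celf4 stays near it (29 of 61).

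The 3 tallest Celf2 peaks lay away from its start sites. The tallest, with a maximum of 459 (6523490 to 6524783, place 439 of all annotated peaks), lay beyond the 3′ end of the gene and was classed as distal intergenic. That of 363 (6637412 to 6637918) lay in intron 5, and 100% of its summit window of 200 bp was masked as repeat in the genome, as the purine-rich sequence above shows. That of 293 (6582570 to 6583650) lay in intron 11, with 65.5% masked. Start sites of Celf2 had peaks of 177 (6871486 to 6872545) and 168 (6884444 to 6885070) at 637.3 and 624.8 kb, where 6 coding transcripts begin in all. Constant-height peaks of 73 and 41 lay 309 and 789 bp from 2 further starts. Summit windows masked over at least 50% of their length made up 18.09% of the Celf2 peaks, 10.99% of the Celf4 peaks and 15.66% of all peaks.

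The peaks assigned to Celf2 and Celf4 from outside the genes were mostly of constant height, and those upstream had somewhat lower medians than those inside. Upstream of Celf2, 21 peaks stretched from 9.99 to 835.3 kb before the 5′ end, with a median maximum of 86 and 4 not of constant height. Upstream of Celf4, 25 stretched to 1499 kb, with a median of 98 and a highest of 195, the latter in the noncoding gene AC118208.1. Inside the bodies the medians were 97.5 for Celf2 and 109 for Celf4. Of the 5 peaks downstream of Celf4, 4 lay in AW554918, another protein-coding gene. Assignment to the nearest start site therefore credited Celf4 with peaks over a megabase away. By the same assignment, 1 peak within Celf3 went to Riiad1, on whose own start site it lies, and 1 within Celf5 to Nfic.

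The insulin response sequence, searched as TATTTTT or TATTTTG on either strand and reported as a binding element of PARIS, was found in 22 of the 206 windows of 200 bp at the maxima (10.68%, interval 7.159% to 15.64%). It was present in 9.95% of all such windows and in 52 of 412 flanking windows of the family (12.62%, interval 9.756% to 16.18%). Within the family the intervals of summits and flanks overlapped. They treat the windows as independent, and the pairing of each summit with its own flanks was not used. In the whole list, flanks held it more often (13.56%, interval 13.41% to 13.71%) than summits (interval 9.765% to 10.14%). The intervals of the family are too wide to show or exclude such a difference. The 22 windows comprised 13 of Celf2 and 9 of Celf4, and 19 of them belonged to the 128 constant-height peaks and 3 to the 78 others. Over all peaks, 11.7% of windows at constant-height peaks and 7% of those at the others held it. Of the 29 tall peaks of the family, 0 had it, beside 5.96% of all tall peaks. In the promoters of the RefSeq table it occurred in 2 of 20 for the family and in 11.32% of all 32817. A match is a matter of letters only and is no binding site.

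GC content at the maxima was higher than beside them. Over the 206 windows it was 46.95% ± 8.567 (SD over windows), against 43.88% ± 7.581 in the flanks 1000 bp to either side, a mean difference of 3.067 percentage points (SD 7.892), beside 3.442 over all peaks. The difference was 4.131 points for the 78 peaks not of constant height and 2.418 for the constant ones, beside 5.849 and 2.048 over all peaks. Mean GC at the maxima was 60.12% in Celf5, 56.88% in Celf6, 51.25% in Celf3, 48.98% in Celf4, 47.9% in Celf1 and 43.21% in Celf2.

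The family was set beside a list of 20 other genes of splicing regulators, among them the Rbfox, Elavl, Nova, Ptbp, Mbnl and Khdrbs families. These 20 genes had 502 assigned peaks, from 0 to 133 a gene (median 15), against 4 to 94 (median 6.5) for the Celf genes. The highest counts were at Rbfox1 (133, density ratio 2.014) and Rbfox3 (101, ratio 3.98), followed by Srrm4 (41), Rbfox2 (29), Mbnl2 (28) and Elavl2 (26). Peaks not of constant height made up 38.65% there and 37.86% in the Celf family. The body density was above the chromosome mean in 14 of the 20 genes and in 6 of the 6 Celf genes, with median ratios of 2.138 and 4.425, and in 46.7% of all protein-coding genes. Nothing is read from this count, as the family was picked on its peaks, and the ratio of Celf1 was below 1 in the subsets named above. Of the 20, 19 had a peak within 1 kb of some start site and 12 at the outermost 5′ end, against 6 and 3 of the 6 Celf genes.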

How the data were processed

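Reads of the anti-FLAG library were trimmed, aligned to mm10 with Bowtie2 and stripped of low-quality and duplicate reads, and peaks were called with SEACR against the IgG library, per the labels' protocols. Versions, the SEACR settings and any scaling of coverage are not given in the sources used here. The authors' deposited peak list gives total and maximum signal (coverage, whole numbers). Their annotation table, also deposited, assigns 99782 of the 99797 peaks to genes by the region of maximum signal, with the distance in bp to a TSS, and its copy of the total signal was equal for 100% of peaks. The signal tracks were not used here. IgG entered only through the authors' peak calling.

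From these values, positions, shapes, densities per ungapped Mb of chromosome, GC content and motif matches were computed with Python 3.11.15, pandas 2.3.3, numpy 2.4.6, SciPy 1.17.1, pysam 0.24.0 and samtools 1.23.1 on GRCm38.p6 with GENCODE M21. The density calculation was tested on simulated data. The members and gene lists were chosen with earlier results of these data known, as was the shape measure. Peaks named singly are those within 1 kb of a member's TSS and the 3 with the highest maximum per gene, and other genes are overlapping or neighbouring genes, those at the top of and next to Celf2 and Celf4 in the density order (1 of them is not reported here), and the 6 listed splicing regulators with the most peaks. Further peaks and introns were named after their values were seen. Alternatives were subsets of peaks, merging within 1 kb, other TSS distances, assignment by overlap, other shape thresholds, windows of 400 bp and the leaving out of Celf2 or Celf4, the last added after the data were seen.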

Additional observations from a re-analysis of the deposited data

How the results depend on the processing

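Of the recomputed values of the 7 main results, 35 stayed within the interval of the main value, or for a count within 1.5 times of it, and 20 moved beyond that. A reversal could be recorded only for the GC difference, which kept its sign. A density ratio that crossed the chromosome mean was counted as stayed or moved. For single genes, 42 stayed and 24 moved. With peaks above the median maximum only, 106 peaks remained assigned, of which 15.09% lay within 1 kb of a TSS and 52.83% were not of constant height. With the highest 10% only, 29 remained, 86.21% of them in the gene body, 24.14% within 1 kb of a TSS and 100% not of constant height, with a pooled density ratio of 4.519, motif share of 0.0% and GC difference of 5.129 points. In that set the ratios of Celf2 (0.722) and Celf1 (0.0) were below the chromosome mean, and that of Celf4 was 15.35. The ratio of Celf1 was also below it without constant-height peaks (0.8314) and with peaks of at least 200 bp (0.8207). Without constant-height peaks, 78 remained, 80.77% in the body and 17.95% within 1 kb, with a ratio of 3.173 and a motif share of 3.846%. With peaks of at least 200 bp, 47.68% were not of constant height, and windows of 400 bp held the motif in 21.84%. For the shares in the body, near a TSS and not of constant height, the values over all peaks of the same subsets are not given here. These subset shares can therefore not be set against the shares over the full list. Leaving out Celf2 gave a share not of constant height of 46.43% and a ratio of 5.036, and leaving out Celf4 a ratio of 1.875. Against long gene bodies of the same chromosome the ratio of Celf4 was 4.382. No paired analysis was possible because each group has 1 library. Depth is unknown, and for Celf1, Celf3 and Celf6 the number of peaks limits every share.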
